A study of Mus musculus with 21 samples.

Results

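The 8 genes described here, Il4, Il5, Il13, Itln1, Retnlb, Retnla, Chil3 and Chil4, are effectors of type 2 immunity, and they were measured in the colon of germ-free (GF) mice. They were chosen by name with the signals of these same arrays already known, so their levels and the differences between labels are given as a description. All 8 had at least 1 probe on both array designs, of 27499 genes with a symbol on the day 0 design and 24191 on the day 7 design. Total RNA of whole colon from male C57BL/6J mice was labelled with Cy3 and hybridized to 21 single-color Agilent arrays. At day 0, before dextran sodium sulfate (DSS, a chemical that injures the colon epithelium), the labels assign 7 arrays to GF Card9-/- mice and 6 to GF WT mice. At day 7, after 7 days of 2% DSS, each label has 4 arrays. Age is not given in the labels. Card9 encodes an adaptor of innate immune cells, and its deletion is described without restriction to a cell type. The comparison asks how the gene, without a microbiota, bears on the colon transcriptome.

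In type 2 immunity, the epithelial alarmins IL-33, IL-25 and TSLP act on innate lymphoid cells and T helper cells, which release IL-4, IL-5 and IL-13. IL-4 and IL-13 signal through IL-4Rα and the transcription factor STAT6. In epithelial cells this raises the lectin intelectin-1 (Itln1) and the goblet cell product RELMβ (Retnlb), and in macrophages RELMα (Retnla) and the chitinase-like proteins Ym1 (Chil3) and Ym2 (Chil4). IL-5 recruits and sustains eosinophils. The response is best known from helminth infection, and in the colon it belongs to mucus release and tissue repair.

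Each gene was read by its brightest probe, a 60-base oligonucleotide. The first 30 bases of the probes behind the results are shown in lower case, because each value below is the hybridization to that sequence alone. Coordinates follow the array annotation (NCBI37 build), and exons or UTRs were not assigned here.
Itln1, chr1:173448282-173448341, minus strand: attgtgggctccaaggcatgagaaacactg
Retnlb, chr16:48818874-48818933, plus strand: aggaggttgagaaaccaatttcaaaatgat
Retnla, chr16:48844447-48844506, plus strand: gatgaatctaacaaaaactgcagtctcaat
Chil3, chr3:105950485-105950544, minus strand: tgaacatcttttgcttcctgtaaaaccacc
Chil4, chr3:106006584-106006643, minus strand: tactgttagtgctggaccaccaggaaagta

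Retnlb and Retnla are neighbors on chromosome 16, as Chil3 and Chil4 are on chromosome 3 and Il4, Il13 and Il5 on chromosome 11. Chil3 and Chil4 are close paralogs, but the longest run shared by their probes is 7 bases. Their promoters are much more alike. Within the 250 bases before the RefSeq start sites (GRCm38.p6, a build that is not that of the arrays), the best ungapped match was 94 bases long, of which 90 were identical and 4 differed, shown in capitals.
Chil3, within chr3:106167515-106167814, minus strand: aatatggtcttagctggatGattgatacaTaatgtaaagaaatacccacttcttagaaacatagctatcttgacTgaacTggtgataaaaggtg
Chil4, within chr3:106219430-106219729, minus strand: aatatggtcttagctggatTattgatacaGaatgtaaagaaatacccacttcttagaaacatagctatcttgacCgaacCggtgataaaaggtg

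The 10-base motif TTCNNNNGAA, which has the form bound by STAT proteins and reads the same on both strands, was searched in the same 250 bases. It was present in 2 of the 8 windows at hand for 7 of the 8 genes, and in 5.85% of all 32851 windows of the table. The matches lie 1 upstream of Retnla, 145 to 136 bases before the start, and 1 upstream of 1 of the 2 start sites of Il4, 167 to 158 bases before it. Retnla is shown because its signal is described below, with the motif in capitals. A match of letters says nothing of binding, and neither does its lack upstream of Itln1 and Chil3.
Retnla, within chr16:48842359-48842658, plus strand, GRCm38.p6: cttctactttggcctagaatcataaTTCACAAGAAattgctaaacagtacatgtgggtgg

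The deposited labels were checked against Card9 itself. Its probe was well above background, by the scanner software's own criterion, on 7 of 7 day 0 arrays labelled GF Card9-/- and on 0 of 6 labelled GF WT, and at day 7 on 4 of 4 and 1 of 4, where another Card9 probe was read and GF WT replicate 1 was at 7.85, beside 7.93 to 8.57 on the arrays labelled GF Card9-/-. This goes against the labels, so every direction below is that of the labels as deposited. The sign of every difference would turn if the labels were exchanged. At day 7 an exchange would not settle GF WT replicate 1, which would still stand apart in Card9 from the others of its label. Without it the day 7 differences were 1.51 for Itln1, 2.77 for Retnlb, 0.21 for Retnla and 2.71 for Chil3. Day 0 and day 7 were run on different designs and cannot be told apart from them, so each day was analyzed alone. The share of spots well above background was 54.5% to 64.9% per array at day 0 and 42.2% to 57.1% at day 7. Some arrays stood apart by markers of other tissues. The summed signal of 12 pancreatic enzyme genes was 2047860 in GF Card9-/- replicate 7 at day 0 against at most 85767 elsewhere, and 712017 in GF Card9-/- replicate 6 and 45370 in replicate 2.1 at day 7 against at most 23525. At day 0, GF WT replicate 6 had the highest signal of the small intestine markers, and GF Card9-/- replicates 5 and 6, on the same slide, had the lowest and the highest signal of the adipocyte markers. The defining genes of colonocytes and goblet cells were well above background on every array (12 of 12 and 10 of 10 genes). In RNA of whole colon, fewer cells of a type and less RNA per cell cannot be told apart.

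The cytokines were at or near background. Il4, Il5 and Il13 were well above background on 0 of 13 day 0 arrays, with normalized log2 signals of 2.52 to 3.35 for Il4, 2.39 to 2.49 for Il5 and 2.93 to 5.05 for Il13. At day 7, Il4 and Il5 were again well above background on 0 of 8 arrays, at 2.61 to 3.46 and 2.62 to 2.70, with Il5 read by another probe than at day 0. Il13, read there by another probe, was well above background on 1 array only, GF WT replicate 1 at 6.04, the array of that label on which Card9 was also bright, and stood between 2.31 and 2.86 on the other 7. No difference between the labels is given for the cytokines, since values under the background have no order. Absence of their transcripts is not shown by this, as few cells of a colon release them.

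**Figure D1:**
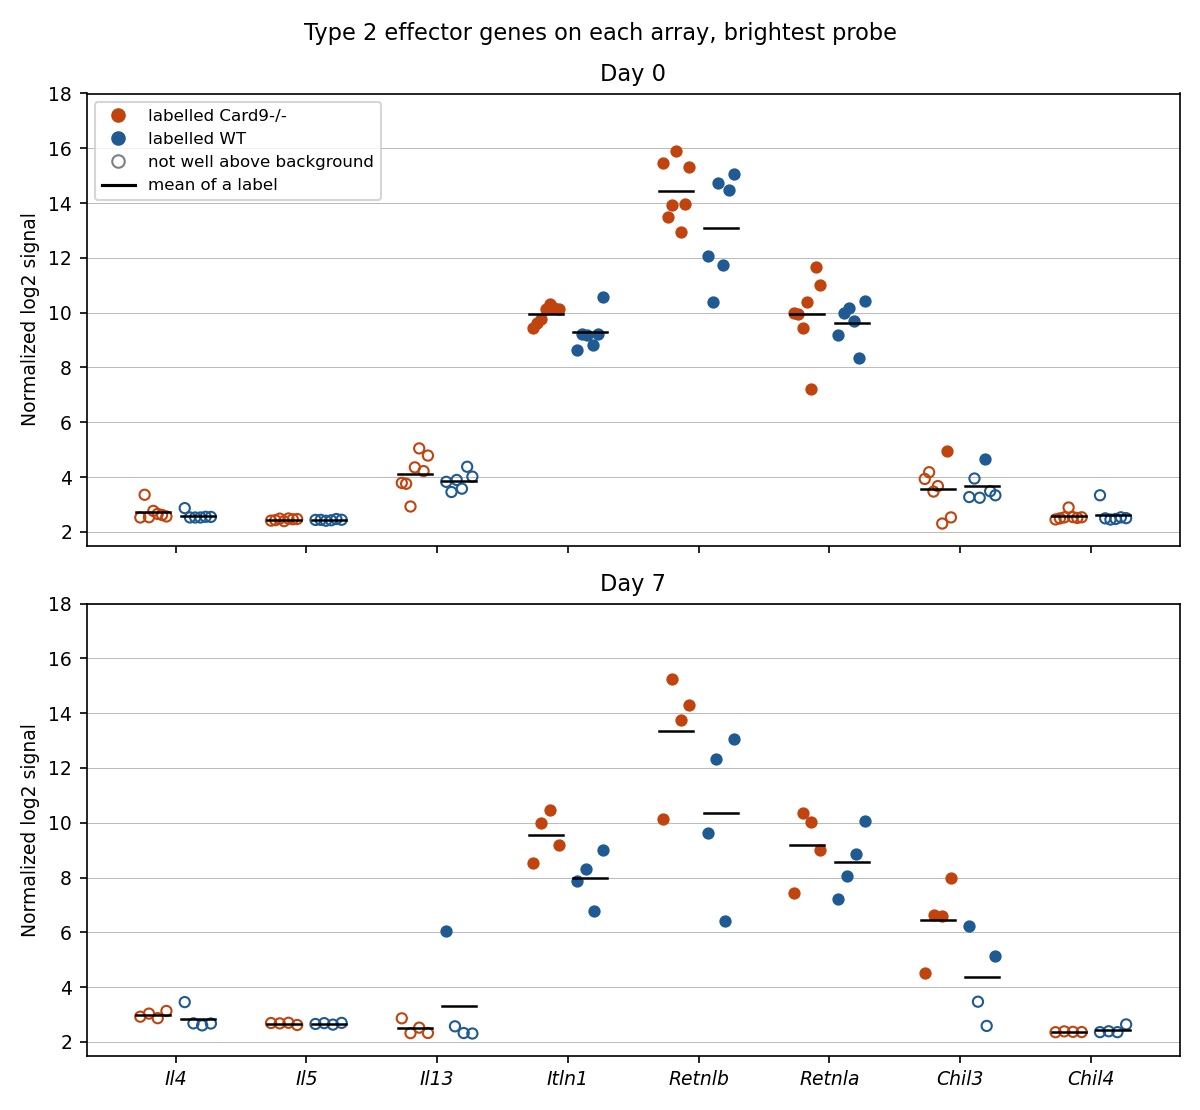
Normalized log2 signal (y axis) of the brightest probe of each of the 8 genes (x axis) on each array, at day 0 (top; 7 arrays labelled Card9-/-, 6 labelled WT) and day 7 (bottom; 4 of each); filled points were well above background, open points were not, and bars are means of a label. Itln1, Retnlb and Retnla were measured on all 21 arrays, whereas Il4, Il5 and Chil4 lay under about 3.5 throughout; the heights of different genes cannot be compared with each other.

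Itln1 encodes intelectin-1, a lectin of goblet and Paneth cells that binds microbial sugars. It was well above background on all 21 arrays and was brighter on average under the GF Card9-/- label on both days. At day 0 the lowest, median and highest log2 signals were 9.45, 10.12 and 10.31 under GF Card9-/- and 8.62, 9.20 and 10.59 under GF WT. A single array made the labels overlap: GF WT replicate 6 had the highest Itln1 of the day, while the other 5 GF WT arrays, at 9.23 or lower, lay below all 7 arrays labelled GF Card9-/-. The difference was 0.67 (SE 0.28, 95% interval 0.07 to 1.27, 1.59-fold), with an adjusted p of 0.787 from limma over the 47410 probes tested. Without replicate 6 it was 0.93 (adjusted p = 0.178). Replicate 6 also had a summed small intestine marker signal of 305648, against 42642 to 170667 on the other 12 arrays. Its Paneth cell marker sum was the lowest of the day (10888, against 96231 to 339787 elsewhere). Its goblet cell marker sum was the lowest as well (1418360, against 1525510 to 1762100). The part of these in its Itln1 signal was not tested.

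At day 7, Itln1 was at 8.53, 10, 10.46 and 9.21 in GF Card9-/- replicates 2, 2.1, 4 and 6, and at 7.86, 8.33, 6.79 and 9.00 in GF WT replicates 1, 4, 5 and 6. Of these, 3 GF Card9-/- arrays were above every GF WT array, and replicate 2 lay within the GF WT range. The difference was 1.56 (SE 0.57, 95% interval 0.22 to 2.90, 2.94-fold, adjusted p = 0.913). Itln1 was the 1 gene of the 8 with an unadjusted p under 0.05 on either day (0.032 at day 0 and 0.028 at day 7), where 5.84% and 3.38% of all probes tested had one. On 3 of the 4 day 0 slides, which all hold both labels, the difference had the same sign (1.5, 0.48 and 0.78), and on the slide of replicate 6 it was -0.34. On the 2 day 7 slides with 1 array of each label it was 1.67 and -0.47.

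Other probes named for Itln1 gave differences of the same sign. The other day 0 probe, well above background on 10 of 13 arrays, gave 0.84 (SE 0.37, adjusted p = 0.824), and its correlation with the brightest probe over the 13 arrays was 0.96. At day 7 that same probe gave 1.23, and a further probe, which overlaps the brightest one by 32 of 60 bases, gave 1.74. The gene most like Itln1 at day 0 was LOC102642530 (Pearson r = 0.99 over 13 arrays), a symbol of the array's annotation. Its probe shares a run of 24 bases, in capitals, with that other Itln1 probe, whereas no run of 15 bases or more is shared with the brightest one, and cross-hybridization was not tested.
Itln1, other probe: ttgatgGGAATGGATATGGAACTCACATTG
LOC102642530: attGGAATGGATATGGAACTCACATTGggt

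Retnlb encodes RELMβ, which goblet cells secrete into the lumen. It had the widest range of the 8 genes on both days, 45.9-fold between the extreme arrays at day 0 and 461-fold at day 7. At day 0 it was at 12.93, 13.97 and 15.91 (lowest, median and highest) under GF Card9-/- and at 10.39, 13.28 and 15.07 under GF WT. The GF WT arrays fell apart, with replicates 1, 2 and 4 at 12.07, 10.39 and 11.73, below all arrays labelled GF Card9-/-, and replicates 3, 5 and 6 at 14.72, 14.49 and 15.07, within their range. The difference was 1.35 (SE 0.82, 95% interval -0.43 to 3.13, adjusted p = 0.912), and 0.81 without GF WT replicate 2.

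At day 7, Retnlb was at 10.15, 15.26, 13.77 and 14.28 in GF Card9-/- replicates 2, 2.1, 4 and 6, and at 9.61, 12.33, 6.41 and 13.04 in GF WT replicates 1, 4, 5 and 6. Again 3 GF Card9-/- arrays were above every GF WT array and replicate 2 was not. The difference was 3.02 (SE 1.69, 95% interval -0.93 to 6.96, adjusted p = 0.913), and 1.70 without GF WT replicate 5. Within slides it was 3.25, 1.26, 2.46 and -1.62 at day 0, and 2.92 and -2.89 at day 7. GF WT replicate 5 was also lowest in the markers of colonocytes, with a summed signal of 228907 against 413169 to 790999 on the other 7 arrays, and of goblet cells, with 1139150 against 1395390 to 1726760. The part of this in its low Retnlb and Itln1 signals was not tested.

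Retnla encodes RELMα, a product of alternatively activated macrophages that white fat also makes. Its levels overlapped widely between the labels. At day 0 the lowest, median and highest signals were 7.21, 9.99 and 11.67 under GF Card9-/- and 8.34, 9.85 and 10.44 under GF WT, so that both extremes of the day carry the same label. The difference was 0.31 (SE 0.62, 95% interval -1.02 to 1.65, adjusted p = 0.959). Single arrays set its size, which was 0.03, 0.14 and 0.77 without GF Card9-/- replicates 6, 7 and 5, and 0.05 and 0.47 without GF WT replicates 5 and 6. At day 7 it was at 7.43, 10.34, 10.03 and 9.02 in GF Card9-/- replicates 2, 2.1, 4 and 6, and at 7.23, 8.08, 8.86 and 10.07 in GF WT replicates 1, 4, 5 and 6. The difference was 0.65 (SE 0.80, 95% interval -1.23 to 2.53, adjusted p = 0.921). It hung on single arrays, at 1.24, 0.27 and 0.37 when GF Card9-/- replicates 2, 2.1 and 4 were left out in turn, and at 0.21 and 1.15 when GF WT replicates 1 and 6 were. Within slides it was 1.82, 0.53, 0.26 and -1.0 at day 0, and 2.26 and -2.64 at day 7.

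Retnla moved with the markers of fat. At day 0 its lowest array, GF Card9-/- replicate 5, had a summed adipocyte marker signal of 14437 and its highest, replicate 6, one of 266825, against 30644 to 167629 on the other 11 arrays. The 3 genes most like Retnla over those 13 arrays, among 15526 compared, were Emilin2 (r = 0.96), Fabp4, a fatty acid carrier of adipocytes (r = 0.93), and Nnmt (r = 0.93). In the adipocyte list, 10 of 10 genes were on the array, 6 of them well above background on all 13 arrays. Adipoq, its defining gene, ranged from 2.52 in replicate 5, where it was not well above background, to 13.31 in replicate 6. At day 7, Retnla and the adipocyte markers were both highest in GF Card9-/- replicate 2.1 (summed signal 131365), but GF WT replicate 5, with the lowest adipocyte signal (19562), had an intermediate Retnla of 8.86. How far adipose RNA sets the Retnla signal was not tested.

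**Figure D2:**
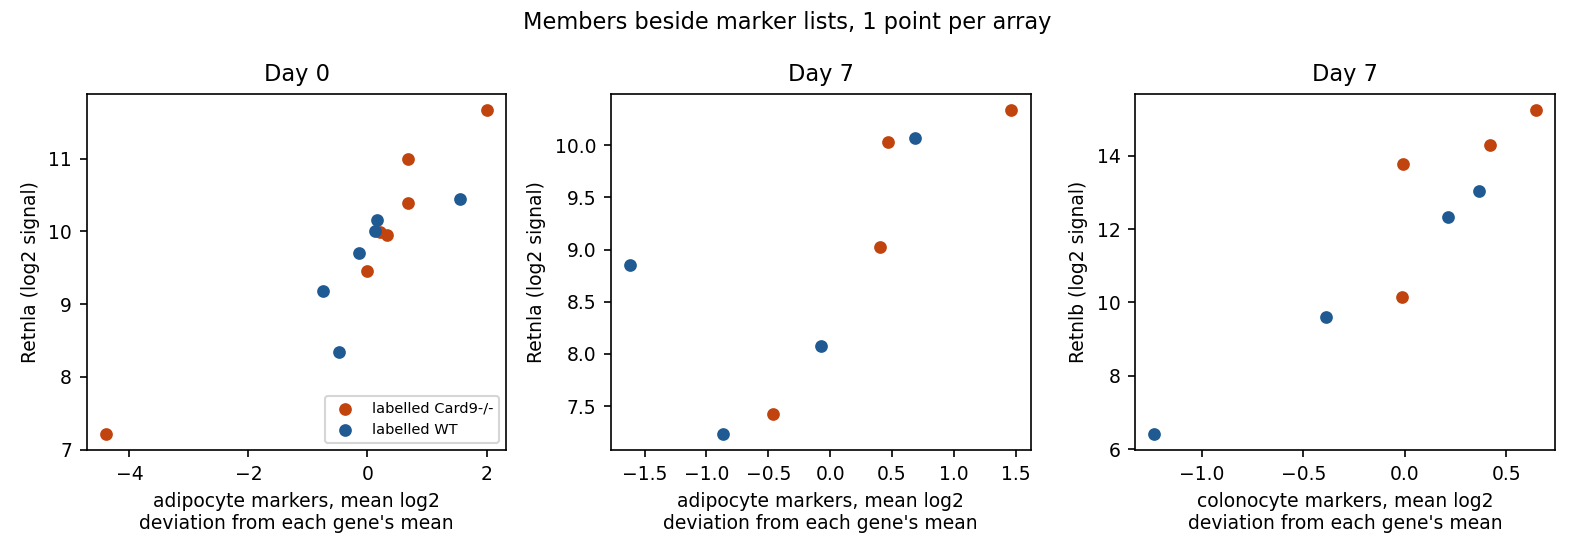
Log2 signal of Retnla at day 0 (left) and day 7 (middle) against the adipocyte markers, and of Retnlb at day 7 against the colonocyte markers (right); x axes give the mean over a list of each gene's log2 deviation from its own mean, and each point is 1 array. GF Card9-/- replicates 5 and 6 are the lowest and highest points of both measures on the left, and GF WT replicate 5 is the lowest of both on the right.

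Chil3 and Chil4 encode the lectins Ym1 and Ym2, which macrophages release in type 2 inflammation. Chil4 was well above background on 0 of 21 arrays (2.45 to 3.34 at day 0 and 2.36 to 2.64 at day 7). At day 0 Chil3 was well above background on only 2 of 13 arrays, GF Card9-/- replicate 6 at 4.95 and GF WT replicate 4 at 4.66, and its difference is not given. By day 7 Chil3 exceeded background clearly on 6 of 8 arrays. It was at 4.52, 6.63, 6.61 and 7.98 in GF Card9-/- replicates 2, 2.1, 4 and 6, and at 6.25, 3.47, 2.59 and 5.12 in GF WT replicates 1, 4, 5 and 6. Of these, GF WT replicates 4 and 5 were not well above background, and 3 of 4 GF Card9-/- arrays were above every GF WT array. How many of all probes had such a count was not determined. Chil3 qualified for a difference only through the GF Card9-/- label, well above background on 4 of 4 arrays against 2 of 4 under GF WT. The side of the difference and this count are therefore tied to the filter, and the test cannot weigh that side. The difference was 2.08 (SE 0.98, 95% interval -0.22 to 4.37, adjusted p = 0.913 in limma), but its size rests on the floor under GF WT replicates 4 and 5. It was 1.34 with dim values raised to the lowest measurable signal, 1.03 in the authors' table and 0.81 after normexp background correction. On the 1 slide where both labels were well above background, GF Card9-/- replicate 2 was below GF WT replicate 6 (-0.60). Cross-hybridization between these paralogs was not tested.

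The summed signal of the macrophage markers at day 7 ran from 27488 to 46925, with 12 of 12 genes well above background on all 8 arrays, and was highest in GF WT replicate 5, 1 of the 2 arrays on which Chil3 was not well above background. The pancreas markers were highest in GF Card9-/- replicate 6, which also had the highest Chil3. Without replicates 2.1 and 6 the Chil3 difference was 1.21 and that of Retnlb 1.61, with SEs of 1.21 and 2.20, and the part of pancreatic RNA in them was not tested further.

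No gene of the 8 passed the threshold between the labels. At day 0, 6 of the 8 were tested and 0 had an adjusted p under 0.05 (range 0.787 to 0.989), Il4, Il13 and Chil3 among them on signals mostly or wholly under the background, where 12 probes, 0.0253% of those tested, did. At day 7, 6 were tested, again with Il4 and Il13 under the background on most or all arrays, and 0 passed (0.913 to 0.936), where 0 of 44643 probes (0%) did, and 1 of the 6 on each day had an unadjusted p under 0.05 in limma. For the 3 genes well above background on every array (Itln1, Retnlb and Retnla), the differences were 0.31 to 1.35 at day 0 and 0.65 to 3.02 at day 7, against medians of 0.02 and 0.001 over all probes tested, of which 57.0% and 50.4% were above 0. These medians do not give the spread of the probes, and how many probes differed as much was not counted. Whether the difference itself differed between the days was tested on 23633 probes shared by the designs, of which 0% passed. It was larger at day 7 by 0.89 (SE 0.58, adjusted p = 0.790) for Itln1, 1.67 (SE 1.72, adjusted p = 0.884) for Retnlb and 0.33 (SE 1.03, adjusted p = 0.969) for Retnla. Day and array design change together in this comparison and cannot be told apart. The day 7 side also holds GF WT replicate 1, on which Card9 was bright. For Chil3 no such value is given, since most day 0 arrays were under the background.

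**Figure D3:**
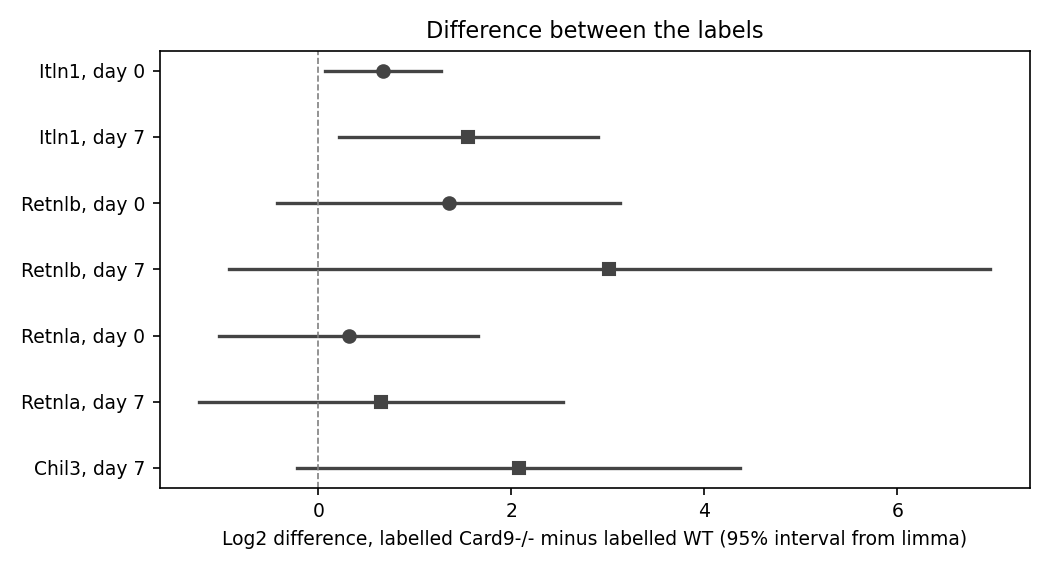
Difference in log2 signal between the labels (x axis; GF Card9-/- minus GF WT) for the genes and days with a signal well above background on at least 60% of the arrays of a label (y axis); points are estimates and bars 95% intervals from limma. The intervals of Itln1 lie above 0 on both days and those of the other genes include 0, and Chil3 qualified only through the GF Card9-/- label, so its side follows from the filter.

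The epithelial genes (Itln1, Retnlb) were then set against the myeloid genes (Retnla, Chil3) over the arrays of each day, as 8 pairs of genes and days. At day 7 the correlation was above 0 for both epithelial genes with Retnla and with Chil3, but 0 of the 8 pairs passed the threshold after Benjamini-Hochberg adjustment. Pearson's r over 8 arrays was 0.71 for Itln1 with Chil3 (two-sided exact permutation p = 0.049, adjusted 0.197, Spearman's rho 0.76, p = 0.037, adjusted 0.098). For Retnlb with Chil3 it was 0.71 (exact permutation p = 0.047, adjusted 0.197, rho 0.81, p = 0.022, adjusted 0.098). For Itln1 with Retnla it was 0.63 (exact permutation p = 0.092, adjusted 0.235, rho 0.71, p = 0.058, adjusted 0.115) and for Retnlb with Retnla 0.59 (exact permutation p = 0.118, adjusted 0.235, rho 0.76, p = 0.037, adjusted 0.098). Of the 8 Chil3 values, 2 were not well above background, and without GF WT replicate 5, 1 of them, r with Chil3 was 0.49 for Itln1 and 0.47 for Retnlb. Without the 2 arrays farthest from the median of the epithelial gene, r over 6 arrays was 0.46 and 0.72 with Chil3 and 0.88 and 0.83 with Retnla, for Itln1 and Retnlb in turn. After each label's mean was subtracted, r was 0.49 and 0.57 with Chil3 and 0.64 and 0.55 with Retnla, with exact permutation p from 0.13 to 0.269.

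At day 0 the values were lower, and the difference between the days was not tested. Over 13 arrays, r was 0.21 for Itln1 with Retnla (permutation p = 0.496, adjusted 0.496, rho 0.38, p = 0.204, adjusted 0.272) and 0.30 for Retnlb with Retnla (permutation p = 0.323, adjusted 0.496, rho 0.51, p = 0.080, adjusted 0.129). Without the 2 farthest arrays they were 0.08 and 0.49, and after each slide's mean was subtracted 0.33 and 0.24. Leaving out GF Card9-/- replicate 5, the array with the lowest adipocyte markers, brought Itln1 with Retnla to 0.65, and leaving out replicate 6, the one with the highest, brought it to 0.09. The pairs with Chil3 at day 0 rest mostly on values under the background and are given for completeness. With Chil3 at day 0, r was -0.26 and -0.23. All day 0 arrays share a slide with others, as 4 of the 8 day 7 arrays do, and the pooled r joins both labels.

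**Figure D4:**
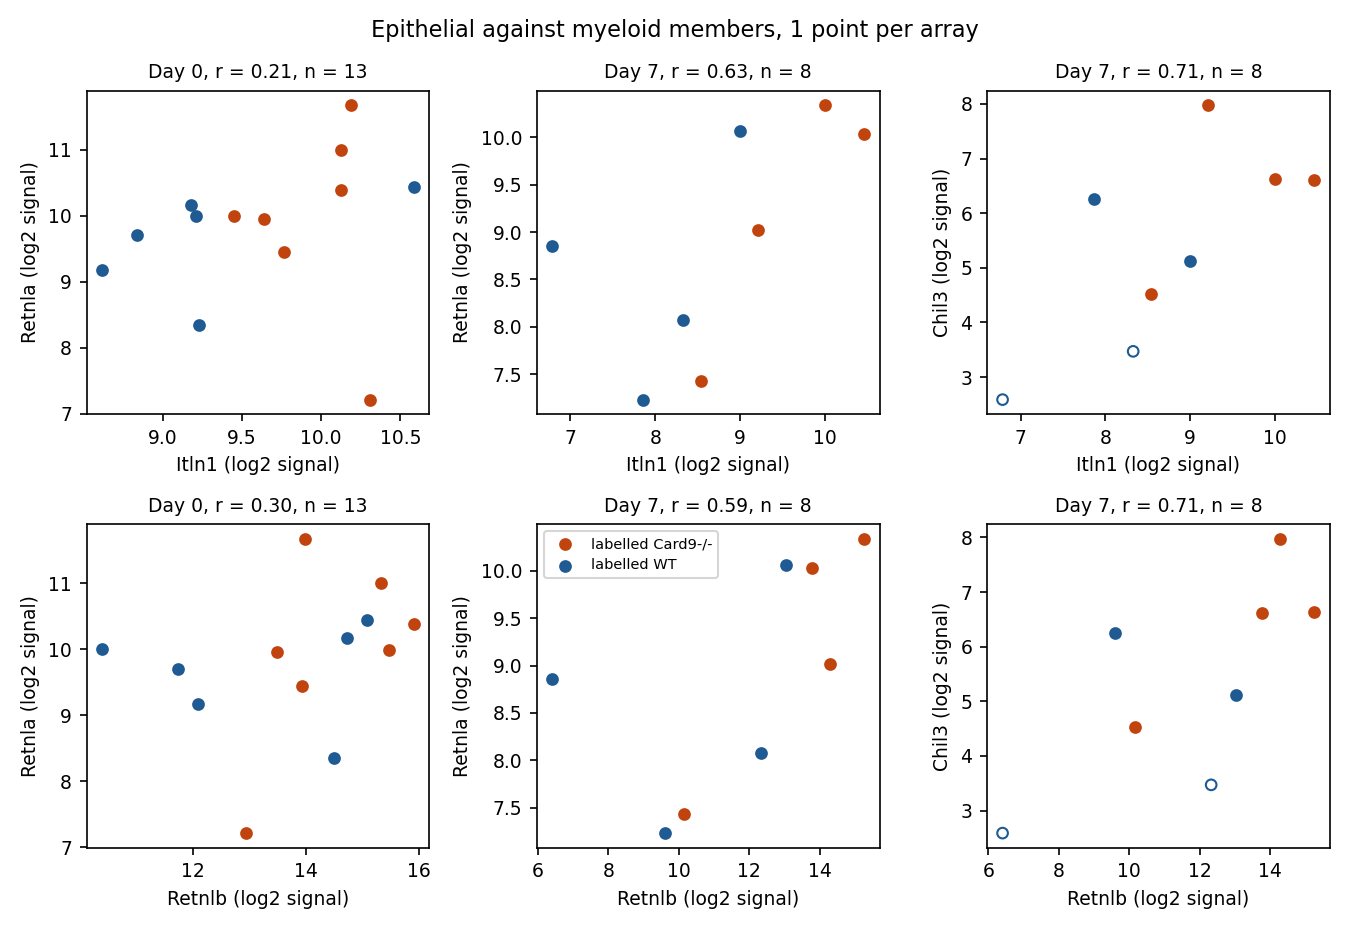
Log2 signal of Retnla or Chil3 (y axes) against that of Itln1 (top) or Retnlb (bottom; x axes) for the 6 pairs in which both genes were well above background on at least 60% of the arrays; each point is 1 array, and open points were not well above background for the gene on the y axis. At day 7, GF WT replicate 5 lies far to the left in each panel, with Chil3 not well above background but an intermediate Retnla, and r is 0.59 to 0.71, against 0.21 and 0.30 at day 0.

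The genes most like each member were sought among genes well above background on all arrays, and no p is given for them. For Retnlb at day 0 these were Galnt12, which starts O-glycosylation, Proc and Ptprn2 (r = 0.97, 0.97 and 0.96 over 13 arrays). At day 7 they were Pgap1, Mrap and Rimkla (0.99 each over 8 arrays). Itln1 was followed by Lsm3 and Fbxo34 at day 0 (0.95 and 0.94), after LOC102642530, and by Cd63, Adora1 and Ttc30a1 at day 7 (0.98, 0.98 and 0.97). For Retnla at day 7 they were Hsp90aa1, Chd1 and Ldb3 (0.97, 0.96 and 0.96), and for Chil3 Mideas, Vwa8 and AW112010 (0.96, 0.94 and 0.93). No gene was in this set for the same member on both days. The comparison covered 15526 genes at day 0 and 13016 or, for Chil3, 13017 at day 7.

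The rest of the pathway was measured by 3 lists with 56 genes on the designs. In limma, 0 of the 53 tested at day 0 and 0 of the 54 tested at day 7 passed the threshold in either direction. Over all probes tested, 0.0253% and 0% did. Of the pathway genes, 4 and 0 had an unadjusted p under 0.05 (7.5% and 0.0% of those tested, where 5.84% and 3.38% of all probes had one). The 4, named after their values were seen, were Areg, a repair growth factor (1.06), Il17rb, a chain of the IL-25 receptor (0.24), Crlf2, the TSLP receptor (-0.50), and the transcription factor Maf (-0.53), with adjusted p of 0.348 or more. Among the 13 upstream cytokines and receptors, 12 were tested on each day. Their median difference was -0.01 at day 0, with 6 above and 6 below 0, and 0.34 at day 7, with 11 above 0. The alarmin Il33 was well above background on all arrays, at 7.08 ± 0.46 (SD, n = 7) under GF Card9-/- and 7.06 ± 0.53 (SD, n = 6) under GF WT at day 0, and at 7.56 ± 0.99 and 6.62 ± 0.48 (n = 4 each) at day 7 (difference 0.94, SE 0.50, adjusted p = 0.913). Its receptor Il1rl1 gave -0.10 (SE 0.45) at day 0 and 2.24 (SE 1.52, adjusted p = 0.913) at day 7, where it was highest in GF Card9-/- replicate 2.1. Il25, the tuft cell cytokine, was well above background on 12 of 13 arrays at day 0 and 3 of 8 at day 7, and Tslp on 8 of 13 and 2 of 8. Their differences were 0.42 (SE 0.36) and -0.41 (SE 0.57) at day 0.

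In the second list, of 18 receptors and signaling genes of IL-4, IL-5 and IL-13, all were tested, with medians of -0.01 at day 0 and 0.19 at day 7. The shared receptor chain Il4ra was at 10.38 ± 0.15 and 10.46 ± 0.10 at day 0 and at 9.29 ± 0.56 and 9.11 ± 0.55 at day 7, under GF Card9-/- and GF WT in turn. Stat6 was at 10.56 ± 0.10 and 10.61 ± 0.18 at day 0 and at 9.99 ± 0.30 and 10.02 ± 0.40 at day 7. The type 2 regulator Gata3 differed by -0.08 (SE 0.51) and 0.44 (SE 0.40), Il13ra1 by 0.24 (SE 0.19) and 0.35 (SE 0.33), and the decoy receptor Il13ra2 by -0.14 (SE 0.29) and -0.15 (SE 0.47), at day 0 and day 7 in turn.

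The third list, of other targets in macrophages and epithelium, had medians of -0.08 over 23 genes at day 0 and 0.24 over 24 genes at day 7. Clca1, a goblet cell protein that IL-13 raises, was at 18.47 ± 0.05 and 18.35 ± 0.23 at day 0 and at 18.13 ± 0.14 and 17.82 ± 0.46 at day 7. The macrophage receptor Mrc1 differed by -0.67 (SE 0.47, adjusted p = 0.912) at day 0 and 0.002 (SE 0.41) at day 7. The eotaxins, which attract eosinophils, differed by -0.41 (SE 0.69) and 0.77 (SE 0.56) for Ccl11 and by -0.19 (SE 0.29) and 1.10 (SE 0.80) for Ccl24. These lists were put together with earlier results of these arrays known.

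Markers of the cells that carry a type 2 response gave no call either (limma, 0 genes past the threshold in any of the 15 marker lists). Over all probes tested, 0.0253% passed at day 0 and 0% at day 7, so this count says little about these cells. The eosinophil list had a median difference of 0.02 at day 0 over 8 genes and 0.59 at day 7 over 9, with a summed signal at day 7 of 508 to 1041 under GF Card9-/- and 281 to 646 under GF WT. Of these 9 genes, 3 were well above background on no day 7 array and 1 on all, so the median rests largely on values without order. The mast cell list gave 0.41 over 11 genes and 0.93 over 8, the tuft cell list 0.23 and 0.58 over 10 genes each, and the macrophage list -0.32 and 0.06 over 12. At day 0 and day 7 in turn, 10 of 11 and 8 of 8 mast cell genes were above 0, as were 4 of 8 and 7 of 9 eosinophil genes. Above 0 were also 9 of 10 tuft cell genes on each day, and 0 and 8 of the 12 macrophage genes. At day 7, 12 of 12 colonocyte genes and 8 of 10 goblet cell genes were also brighter under GF Card9-/-, with medians of 0.35 and 0.31. The lists of adipocytes (median 1.17) and pancreas (4.57) moved further the same way, and smooth muscle (-0.39) the other way. The other day 7 medians were 0.40 for ILC2 and T cells, 0.32 for neutrophils, 0.96 for small intestine, 0.48 for Paneth cells, 0.41 for mesothelium and 0.48 for B cells. Here too, 5 of 12 neutrophil genes and 3 of 6 Paneth cell genes were well above background on no array. At day 0 the medians of the lists not yet given were 0.14 for ILC2 and T cells, 0.03 for neutrophils, 0.13 for goblet cells, 0.09 for colonocytes, -0.07 for small intestine, 0.34 for Paneth cells, 1.51 for pancreas, -0.21 for adipocytes, 0.91 for mesothelium, -0.45 for smooth muscle and -0.17 for B cells. The part of these cell types in the differences of Itln1, Retnlb and Chil3 was not tested.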

How the data were processed

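The authors deposited the Feature Extraction 10.7.3.1 output of each array, holding linear spot intensity and, for each spot, a p-value of its signal over the background, as well as their own normalized log2 values. Per the file headers, day 0 and day 7 arrays are of 2 designs. Here the processed signal was log2-transformed, quantile normalized over the arrays of a day, stripped of control and outlier spots and averaged per probe. Probes entered the test where, for 60% or more of a label's arrays, 50% of the spots had a p-value below 0.05, given 2 values per label. Labels were compared by limma with Benjamini-Hochberg adjustment at 0.05 over all tested probes, and correlations by permutation (100000 resamples for 13 arrays, all pairings for 8). Differences are the GF Card9-/- label minus the GF WT label.

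The members, gene lists and rules were chosen with earlier results of these data known. A gene was named through the RefSeq record of its probe, otherwise by the file. The 8 genes, 13 fixed pathway genes, any list gene past the threshold and the 3 genes most like each measured member are named by rule, Areg, Il17rb, Crlf2, Maf and Adipoq after their values were seen, and 1 more gene of the set is not reported here. The 18 lists hold type 2 pathway genes and markers of eosinophils, mast cells, ILC2 and T cells, tuft cells, macrophages, neutrophils, goblet cells, colonocytes, small intestine, Paneth cells, pancreas, adipocytes, mesothelium, smooth muscle and B cells. The labels number the arrays without stating that each is a separate mouse, so p-values measure the spread between arrays, and their number limits the precision. GF Card9-/- replicates 2 and 2.1 differed as much as other pairs (SD ratio 0.939) and were counted as 2. The fit was tested on simulated data. R 4.3.3, limma 3.58.1, the data.table package (1.17.8), statmod 1.5.0, numpy, pandas, scipy and matplotlib were used, with seed 1.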

Additional observations from a re-analysis of the deposited data

Results flagged for a closer look

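Within the arrays of a label, 2 values of the 8 genes stood far from the nearest other array by Dixon's test, of 17 groups of values checked. Chance gives such a gap in about 5% of groups. GF WT replicate 6 was the highest of 6 at day 0 for Itln1 (10.59, next 9.23). GF WT replicate 1 was the highest of 4 at day 7 for Il13 (6.04, next 2.57), and it is the GF WT array of that day on which Card9 was bright. The other GF WT values of Il13 were not well above background, so this gap is measured from the floor, where the rate of 5% need not hold.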

How the results depend on the processing

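The sign of each of the 7 differences given (that of Chil3 being tied to the filter), and of the 6 correlations between genes measured on most arrays, was the same under every alternative run, and 0 genes and 0 pairs passed the threshold under any of them. The alternatives were other normalizations, background corrections, filters and probe choices, the authors' table, blocks, and arrays left out. Over the alternatives the difference ranged from 0.53 to 0.93 for Itln1, 0.81 to 2.14 for Retnlb and 0.03 to 0.77 for Retnla at day 0. At day 7 it ranged from 1.15 to 1.89 for Itln1, 1.34 to 4.09 for Retnlb, 0.17 to 1.24 for Retnla and 0.81 to 3.0 for Chil3. The number of probes past the threshold at day 0 was 12, against 27 with normexp, 22 with the authors' table, 22 with a stricter filter on dim probes, 7 with the replicate block and 8 to 16 with 1 array left out. At day 7 it was 0, and 1 without GF WT replicate 1. The replicate numbers only name arrays, and deviations of arrays with the same number correlated at -0.02 to 0.37 at day 0 and 0.03 to 0.11 at day 7. With the replicate block the Itln1 difference was 0.64 (adjusted p = 0.520) and 1.17 (adjusted p = 0.832), and no call changed. At day 0 this fit leaves GF Card9-/- replicate 7 without a partner, and at day 7 it rests on 2 pairs, too few to speak of stability. Leaving out the 3 arrays of the slide of GF WT replicate 6, or the 2 day 7 arrays with pancreas transcripts, was chosen after seeing the data. Correlations within slides were not run at day 7, where only 4 arrays share a slide. Genes with signals under the background can be neither ordered nor compared.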
